A study of Mus musculus with 8 samples.

Results

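Cholesterol and fatty acid synthesis were examined in the colon of mdr1a-/- mice through 35 genes that encode enzymes of both pathways and the proteins that sense sterol. The genes were chosen by symbol, with earlier results of these data known. Each was matched to the probe annotation of the array, and the probes of a gene were averaged on each array. All 35 could be tested, among 24030 measurements in all. They comprised 17 enzymes of sterol synthesis, 6 genes of sterol sensing and transport, and 12 genes of the fatty acid arm. The annotation gave 69 features for these genes, of which 66 had values on at least 3 arrays per group and were used, and 13 members rested on a single feature.

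The mice were males without mdr1a, a drug efflux transporter whose loss leads to colitis, and the labels give an age of 7 weeks for every one, while the design text gives that as the age at which monitoring began. There were 4 curcumin mice, fed the purified diet AIN-76A with 0.2% curcumin, the yellow polyphenol of turmeric, and 4 control mice, fed AIN-76A alone. The design text says that the curcumin mice on the arrays had low colonic HIS, a score of tissue injury, and the control mice high HIS, so diet and injury differed together between the groups. Colon tissue was used, so fewer cells of a type and less RNA per cell cannot be told apart.

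RNA of every mouse was hybridised in Cy3 to an Agilent array of 2 colours, with a reference RNA in Cy5, and the deposited value of a feature is a log2 ratio. The labels do not state which way the ratio runs. Signs here take it as mouse over reference, an assumption, and every sign would turn if it ran the other way. The labels call the reference wild-type Swiss colon on the same diet, while the design text speaks of a single reference RNA. All 9 liver genes tested lay below 0 on all 8 arrays, with a median log2 ratio of -3.97 to -3.56 on the curcumin arrays and of -3.76 to -3.23 on the control arrays. All 8 macrophage markers tested had lower group means in the curcumin mice, described in the design text as low in injury, with signs taken this way. On that basis the direction is likely, but no source settles it, and none names liver in the reference. A ratio to such a reference gives differences between mice and no order of expression between genes. With 4 arrays a diet, log2 differences had a median standard error (SE) of 0.11 over all measurements, which bounds what can be resolved. Correlations between arrays, over features with a value on all 8 arrays, lay between 0.74 and 0.92. Curcumin arrays 3 and 4 carry slide numbers from another range than the remaining 6 arrays.

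Cells build cholesterol from acetyl-CoA through mevalonate, farnesyl diphosphate, squalene and lanosterol. Fatty acids grow from the same acetyl-CoA and are then desaturated, elongated and joined to glycerol. SREBP transcription factors drive both arms: when sterol is scarce in the endoplasmic reticulum, SCAP escorts them to the Golgi for cleavage, and when sterol is plentiful INSIG proteins hold them back. In the colon, the epithelium makes sterol and fatty acids for its own membranes, and fat cells next to the gut wall are rich in the lipogenic enzymes.

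Of the 35 members, 2 passed the test upward with curcumin, Hmgcs1 and Dhcr7, which encode an early and the last enzyme of cholesterol synthesis. A single member passed downward, the elongase gene Elovl5. That is 3 of 35 members, where 4.73% of all measurements passed (2.10% upward and 2.63% downward), in limma with the Benjamini-Hochberg method over all 24030 measurements and a threshold of 0.05. The largest difference was that of the desaturase gene Scd1, with a log2 difference of 1.48 that did not pass (adjusted p = 0.0535). A difference above 0 was found in 28 of 35 members, Hmgcs1 and Dhcr7 among them, against 43.8% of all measurements. The values of the 2 diets did not overlap in 9 members, 7 higher and 2 lower with curcumin, where 12.6% of all measurements did not overlap (5.38% higher and 7.21% lower). An unadjusted p under 0.05 in limma was reached by 16 of 35 members, 13 higher and 3 lower, against 18.4% of all measurements. Because the members were chosen with earlier results of these data known, these shares describe the list and do not test it.

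**Figure D1:**
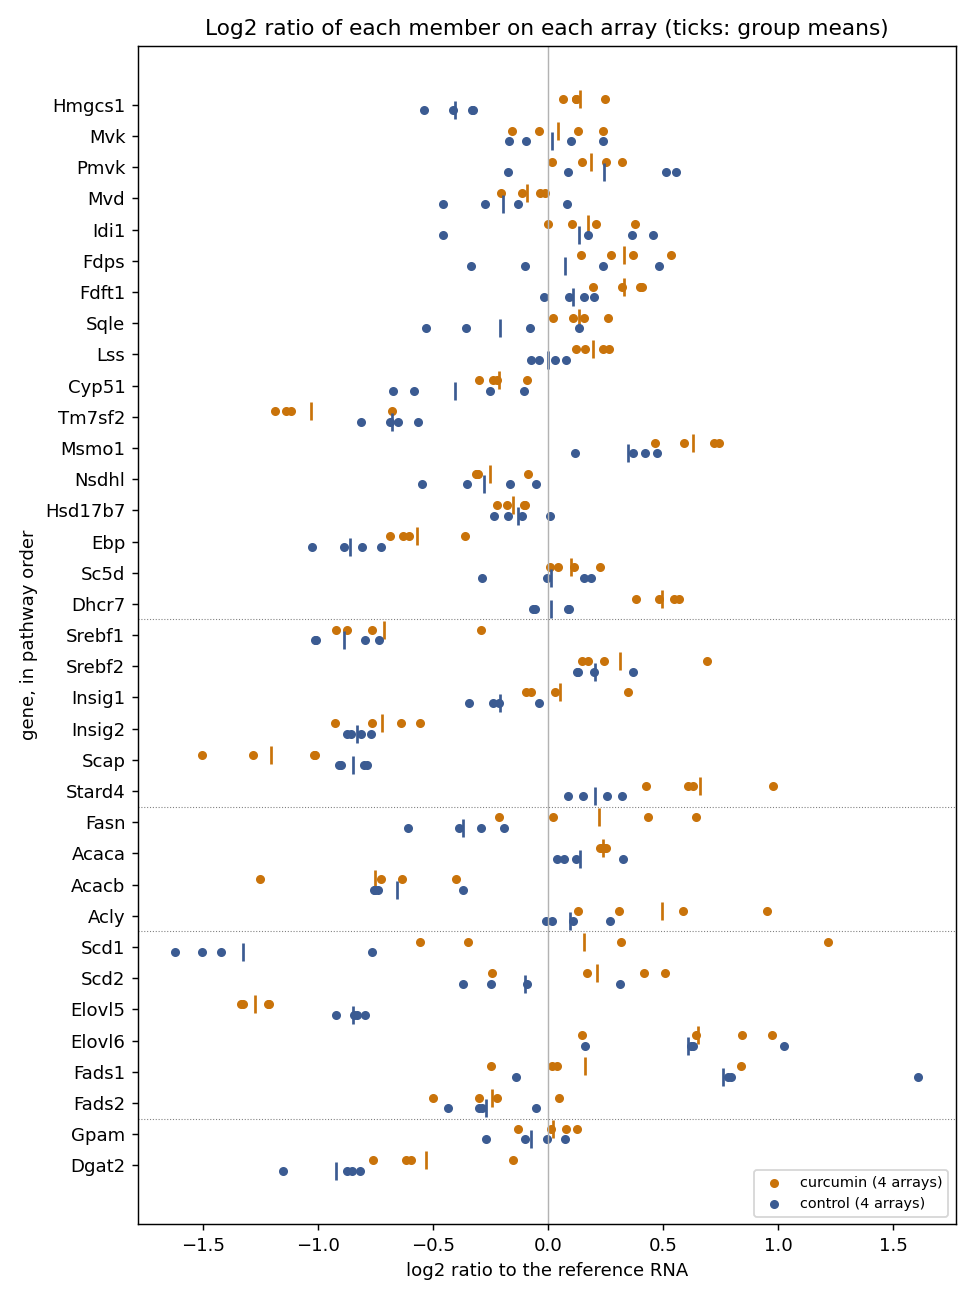
Log2 ratio to the reference RNA (horizontal axis) of each of the 35 members (vertical axis, in pathway order), with a point for each of the 4 curcumin and 4 control arrays and a tick at the group mean. Hmgcs1, Dhcr7 and Scd1 lie higher in all curcumin arrays than in any control array, and Elovl5 lies lower.

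Promoters are shown for the 3 members that passed, because the motifs through which SREBP factors and their partner NF-Y are known to act lie close to the start of many genes of this group. The windows are from RefSeq on build GRCm38.p6, run from 250 bases before to 50 bases after the annotated start, and are written on the gene's strand. Capitals mark matches, on either strand, to the sterol regulatory element TCACNCCAC, the CCAAT box or the E-box CACGTG. Hmgcs1 has a single window (chr13:119690101-119690400, + strand), Elovl5 as well (chr9:77917115-77917414, + strand), and of the 3 windows of Dhcr7 the one with the most matches is given (chr7:143829964-143830263, + strand).
Hmgcs1: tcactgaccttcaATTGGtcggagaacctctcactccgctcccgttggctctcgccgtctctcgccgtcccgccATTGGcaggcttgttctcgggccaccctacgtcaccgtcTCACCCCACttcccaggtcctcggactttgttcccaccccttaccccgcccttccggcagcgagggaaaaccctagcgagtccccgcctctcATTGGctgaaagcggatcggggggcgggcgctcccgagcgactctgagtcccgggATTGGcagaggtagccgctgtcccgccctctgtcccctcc
Dhcr7: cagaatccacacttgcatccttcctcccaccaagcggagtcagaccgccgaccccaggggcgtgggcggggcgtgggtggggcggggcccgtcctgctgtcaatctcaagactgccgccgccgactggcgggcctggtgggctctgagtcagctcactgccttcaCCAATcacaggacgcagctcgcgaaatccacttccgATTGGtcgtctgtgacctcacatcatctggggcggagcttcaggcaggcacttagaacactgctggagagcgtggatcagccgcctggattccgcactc
Elovl5: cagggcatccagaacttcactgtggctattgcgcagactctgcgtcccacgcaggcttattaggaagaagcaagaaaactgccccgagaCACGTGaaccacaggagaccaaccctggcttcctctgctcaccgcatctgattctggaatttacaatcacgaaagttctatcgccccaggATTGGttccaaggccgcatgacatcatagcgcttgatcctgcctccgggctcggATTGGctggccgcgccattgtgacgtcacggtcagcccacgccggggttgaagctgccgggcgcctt

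The Hmgcs1 window held the sterol regulatory element once, as TCACCCCAC at positions -137 to -129 from the start, and the CCAAT box 4 times. The Dhcr7 window shown held the CCAAT box 2 times, and the Elovl5 window held the CCAAT box 2 times and the E-box once. Another window of Dhcr7, not shown, held the E-box at positions -164 to -159. Of the 35 members 27 matched a window. The sterol regulatory element was found in 1 of them (Hmgcs1), against 1.44% of all 27025 genes with a window. A CCAAT box was found in 14 of 14 sterol enzyme genes, 4 of 5 genes of sterol sensing and 5 of 8 genes of the fatty acid arm, against 41.1% of all genes. The E-box was found in 6 of the 27, against 8.09% of all genes. A gene with several windows was counted if any of them held the motif, and a match is a description of the letters and not a bound site. Only exact matches in windows of 300 bases were counted, and 8 members had no window. The lack of a match therefore does not show that a gene lacks the element.

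Hmgcs1 encodes the cytosolic synthase that makes HMG-CoA, the substrate from which mevalonate is formed. Its log2 ratios were 0.12, 0.07, 0.12 and 0.25 in curcumin mice, against -0.33, -0.33, -0.54 and -0.41 in control mice. The groups did not overlap and lay close together within each diet. The gene rose 1.46-fold (log2 difference 0.54, SE 0.08, adjusted p = 0.00719 in limma). Its 2 probes both rose but by unequal amounts, 0.81 and 0.27 on the log2 scale. Dhcr7 encodes the reductase that turns 7-dehydrocholesterol into cholesterol. It had log2 ratios of 0.48, 0.38, 0.57 and 0.55 in curcumin mice and of 0.09, -0.07, 0.09 and -0.06 in control mice, again without overlap. It rose 1.40-fold (log2 difference 0.48, SE 0.08, adjusted p = 0.0111 in limma), and its 2 probes gave 0.45 and 0.51. Both calls held whichever array was left out, with adjusted p between 0.00913 and 0.0284 for Hmgcs1 and between 0.0134 and 0.0408 for Dhcr7. Within the slide range that both diets share, the differences were 0.50 (adjusted p = 0.0904) and 0.42 (adjusted p = 0.128), and with slide range as a block the same differences had adjusted p of 0.0561 and 0.0806, so neither gene passed there.

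Among the sterol enzymes that did not pass, Ebp and Tm7sf2 had the smallest p. Ebp, a sterol isomerase of the late pathway, had log2 ratios of -0.60, -0.36, -0.69 and -0.63 in curcumin mice, against -0.89, -0.72, -1.03 and -0.81 in control mice. The groups did not overlap, and the difference was 0.29 (SE 0.10, adjusted p = 0.144 in limma). Tm7sf2, a sterol reductase that acts after the lanosterol demethylase, was the lowest of the sterol enzymes by its difference. Its values were -0.68, -1.12, -1.14 and -1.19 in curcumin mice and -0.56, -0.69, -0.65 and -0.81 in control mice (difference -0.35, SE 0.12, adjusted p = 0.148 in limma). Curcumin array 1 lay among the control arrays, and without it the gene passed downward (-0.47, adjusted p = 0.0357).

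None of the 5 genes for the steps from mevalonate to farnesyl diphosphate passed, and most of their differences were small. Mevalonate kinase (Mvk) averaged 0.04 ± 0.17 in curcumin mice and 0.02 ± 0.19 in control mice (SD, n = 4 each). Phosphomevalonate kinase (Pmvk) had a log2 difference of -0.06, the decarboxylase Mvd 0.10, the isomerase Idi1 0.04 and farnesyl diphosphate synthase (Fdps) 0.26. The lowest adjusted p among the 5 was 0.487 in limma, and the 2 probes of Fdps gave 0.10 and 0.42. The 95% intervals of these 5 genes ran from -0.43 at the lowest to 0.64 at the highest, so the 8 arrays leave room for differences of that size. In all 5 the SD was smaller over the 4 curcumin mice than over the 4 control mice, as for Idi1, with 0.16 in curcumin mice and 0.41 in control mice.

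From squalene onward most differences lay above 0, as did those of Mvk, Mvd, Idi1 and Fdps in the earlier steps. The difference of Fdps, 0.26, was larger than those of Fdft1, Lss and Cyp51. Squalene synthase (Fdft1) averaged 0.33 ± 0.10 in curcumin mice and 0.11 ± 0.10 in control mice, a difference of 0.22 (adjusted p = 0.175 in limma). Squalene epoxidase (Sqle), a rate-limiting step, averaged 0.14 ± 0.10 in curcumin mice and -0.21 ± 0.30 in control mice (difference 0.34, adjusted p = 0.227 in limma). Sqle overlapped between the groups because control array 1, at 0.14, lay within the curcumin range. Lanosterol synthase (Lss) averaged 0.20 ± 0.07 in curcumin mice and 0.00 ± 0.07 in control mice without overlap (adjusted p = 0.172 in limma), but 1 of its 3 probes had a difference of -0.05 and another 0.43. The probe with the highest values has none on control array 4, and over the other 2 probes of Lss, measured on all 8 arrays, the groups overlapped (curcumin array 1 at -0.06, control array 1 at -0.00). The methylsterol oxidase gene Msmo1 had a difference of 0.28 and the lanosterol demethylase gene Cyp51 one of 0.19, with adjusted p of 0.169 and 0.499. Differences close to 0 were found for the decarboxylating dehydrogenase gene Nsdhl (0.03), the ketosteroid reductase gene Hsd17b7 (-0.02) and the desaturase gene Sc5d (0.08).

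**Figure D2:**
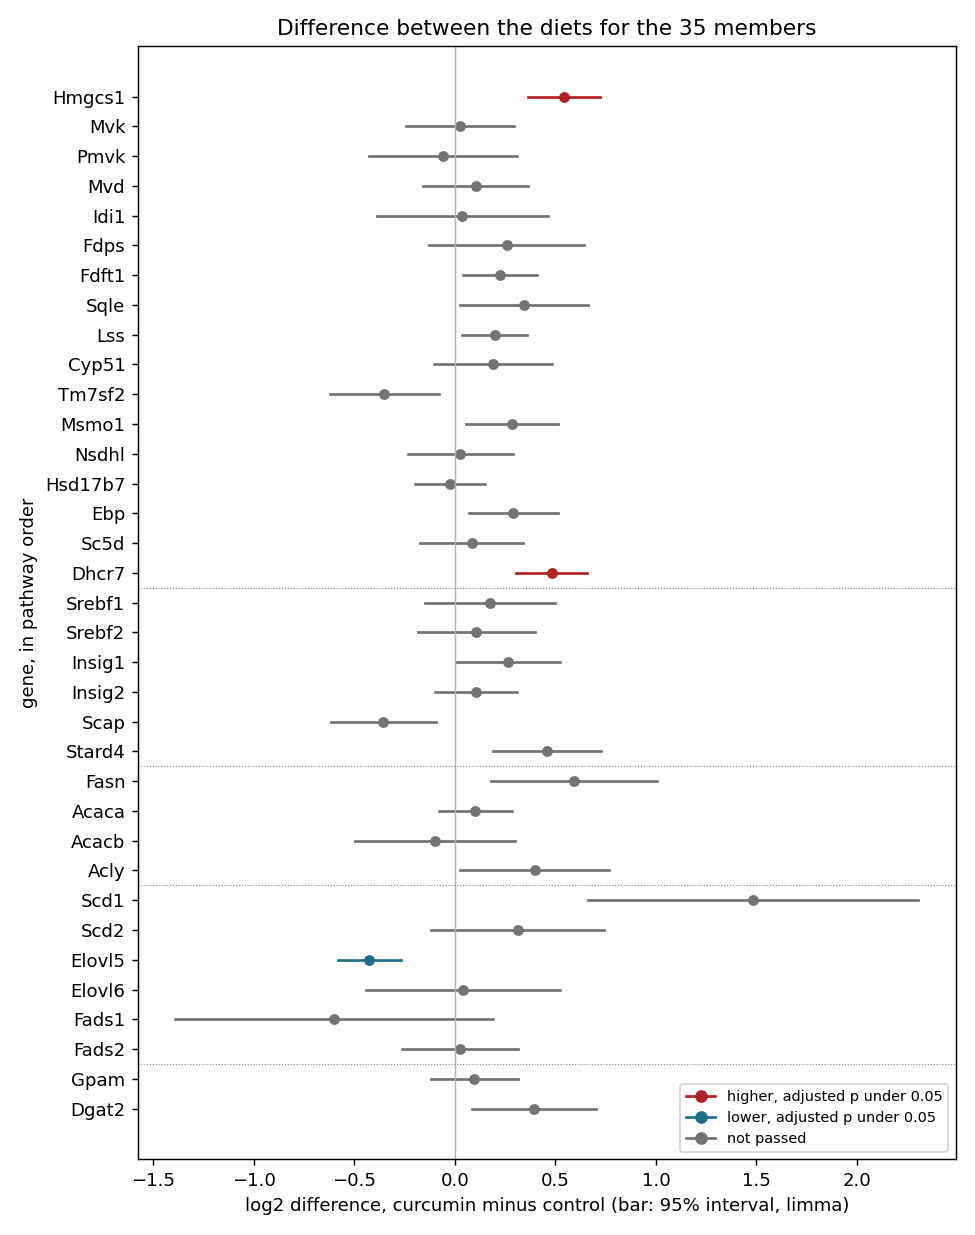
Log2 difference, curcumin minus control (horizontal axis), of each member (vertical axis, in pathway order), with its 95% interval from limma. Hmgcs1 at 0.54 and Dhcr7 at 0.48 passed upward, Elovl5 at -0.43 passed downward, and Scd1 has the largest difference and a wide interval, from 0.66 to 2.31.

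None of the 6 genes of sterol sensing and transport passed. Stard4, which encodes a sterol carrier of the cytosol and is a known SREBP target, came nearest. Its log2 ratios were 0.98, 0.61, 0.43 and 0.63 in curcumin mice, against 0.15, 0.09, 0.32 and 0.26 in control mice. The groups did not overlap and all 3 probes lay higher (0.38 to 0.53), with a difference of 0.46 (SE 0.12, adjusted p = 0.066 in limma). Stard4 passed without curcumin array 3 (0.54, adjusted p = 0.0489 in limma) and with array weights (0.47, adjusted p = 0.0487 in limma), and in no other alternative. Scap, the escort of the SREBP factors, had -1.02, -1.01, -1.28 and -1.50 in curcumin mice, against -0.91, -0.79, -0.80 and -0.90 in control mice, lower without overlap but not past the threshold (-0.36, SE 0.12, adjusted p = 0.13 in limma).

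The genes of the SREBP factors themselves showed small differences. Srebf2, which chiefly drives sterol genes, averaged 0.31 ± 0.26 in curcumin mice and 0.21 ± 0.12 in control mice, with 1 of its 3 probes at 0.40 and the others at -0.01 and -0.07. Srebf1, which chiefly drives fatty acid genes, averaged -0.71 ± 0.29 in curcumin mice and -0.89 ± 0.14 in control mice (difference 0.17, adjusted p = 0.596 in limma). Insig1, an SREBP target whose product retains SCAP, had a difference of 0.26 (adjusted p = 0.264) and its relative Insig2 one of 0.11 (adjusted p = 0.608). These are transcript levels, and cleavage of the SREBP proteins was not measured.

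Fatty acid synthesis proper held 4 members, and none passed over all arrays. Fatty acid synthase (Fasn), which builds palmitate, had log2 ratios of 0.44, 0.64, 0.02 and -0.21 in curcumin mice, against -0.29, -0.19, -0.61 and -0.39 in control mice. Curcumin array 4 fell between the control values, and the difference was 0.59 (SE 0.18, adjusted p = 0.111 in limma). Within the shared slide range, which leaves out curcumin arrays 3 and 4, the Fasn difference was 0.91 (SE 0.14, adjusted p = 0.0496 in limma). With slide range as a block Fasn had the same difference by construction, with an adjusted p of 0.0294 in limma. On curcumin arrays 1 and 2, however, 1 of its 2 probes sat at the log ratio that many features share (191 to 397 an array), and with such values set to missing the difference over all arrays was 0.39 (adjusted p = 0.253). ATP citrate lyase (Acly), which supplies acetyl-CoA, had 0.31, 0.95, 0.13 and 0.59 in curcumin mice, against -0.01, 0.27, 0.02 and 0.11 in control mice (difference 0.40, SE 0.16, adjusted p = 0.238 in limma). Its groups overlapped, and its 2 probes gave 0.53 and 0.03. The weaker probe has no value on curcumin array 2, so 0.95 there is the stronger probe alone. Over that stronger probe of Acly on all arrays the values were 0.49, 0.95, 0.49 and 0.97 in curcumin mice, against 0.04, 0.35, 0.16 and 0.24 in control mice, without overlap (adjusted p = 0.0581 in limma). The acetyl-CoA carboxylase genes, which make malonyl-CoA, differed by 0.10 for Acaca (adjusted p = 0.574) and by -0.10 for Acacb (95% interval -0.49 to 0.30), the isoform tied to fatty acid oxidation.

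The 6 desaturases and elongases did not move as a group: their differences ran from -0.60 to 1.48 with a median of 0.03. Scd1, which puts the first double bond into palmitate and stearate, had log2 ratios of -0.35, 1.22, -0.56 and 0.32 in curcumin mice, against -1.42, -0.76, -1.50 and -1.62 in control mice. The groups did not overlap, yet the curcumin mice spread over a range of values wider than that of any other member, and the 2.80-fold difference did not pass (log2 difference 1.48, SE 0.36, adjusted p = 0.0535 in limma). Scd1 passed without curcumin array 3 (1.72, adjusted p = 0.0431), without control array 2 (1.67, adjusted p = 0.0466), after quantile normalization (adjusted p = 0.046), with array weights (adjusted p = 0.0279), with a trended robust variance (adjusted p = 0.0361) and with the replicate block (adjusted p = 0.0228), and over all alternatives its adjusted p lay between 0.0228 and 0.141. The related gene Scd2 averaged 0.21 ± 0.34 in curcumin mice and -0.10 ± 0.30 in control mice (adjusted p = 0.447 in limma).

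Elovl5, which elongates polyunsaturated fatty acids, was the member that fell. It had log2 ratios of -1.34, -1.22, -1.21 and -1.32 in curcumin mice, against -0.92, -0.79, -0.83 and -0.84 in control mice. All 4 curcumin mice lay below all 4 control mice, and the spread within each diet was small. The log2 difference was -0.43 (SE 0.07, adjusted p = 0.0114 in limma), with both probes lower, at -0.54 and -0.31. The call held whichever array was left out (adjusted p between 0.0196 and 0.0412), while within the shared slide range the difference was -0.43 with an adjusted p of 0.103, and 0.066 with slide range as a block. Fads1, a desaturase of the same polyunsaturated pathway, had 0.02, 0.84, -0.25 and 0.04 in curcumin mice, against -0.14, 1.61, 0.80 and 0.78 in control mice. The groups overlapped widely, and the difference of -0.60 did not pass (SE 0.35, adjusted p = 0.422 in limma). Its partner Fads2 had a difference of 0.03, and Elovl6, which elongates palmitate, one of 0.04.

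Glycerolipid assembly was represented by 2 genes. Dgat2, which adds the last fatty acid of triglyceride, had log2 ratios of -0.62, -0.60, -0.15 and -0.76 in curcumin mice, against -0.87, -0.85, -1.15 and -0.82 in control mice. The groups did not overlap, but the difference of 0.39 did not pass (SE 0.14, adjusted p = 0.156 in limma), and its 3 probes ranged from 0.07 to 0.70. Gpam, which starts glycerolipid synthesis, had 0.08, 0.13, 0.01 and -0.13 in curcumin mice, against -0.27, -0.10, 0.00 and 0.07 in control mice (difference 0.10, SE 0.10, adjusted p = 0.661 in limma), with overlap.

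**Figure D3:**
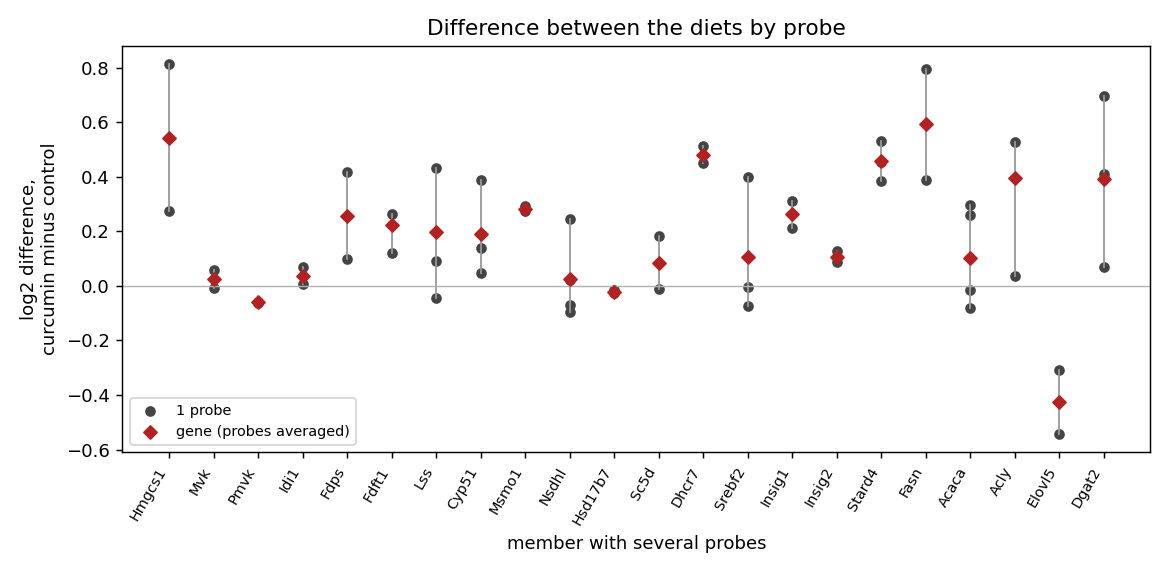
Log2 difference, curcumin minus control (vertical axis), for each probe (grey points) of the 22 members with several probes in use (horizontal axis), with the gene value after averaging as a diamond. In 16 of the 22 the probes have 1 sign, and the probes of Dgat2, Hmgcs1 and Acly lie furthest apart.

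Probes of a gene differed in size more often than in direction. In 22 members with several probes in use, all probes had the same sign in 16, and the signs were mixed in Mvk, Lss, Nsdhl, Sc5d, Srebf2 and Acaca. When each gene was represented by the probe with the highest mean log ratio, Hmgcs1 had 0.27 (adjusted p = 0.146), Dhcr7 0.51 (adjusted p = 0.0971) and Elovl5 -0.31 (adjusted p = 0.0595), and no member passed. If the ratio ran the other way that rule would choose the probe with the lowest mean here: Hmgcs1 then had 0.81 (adjusted p = 0.00916), Elovl5 -0.54 (adjusted p = 0.0142) and Dhcr7 0.45 (adjusted p = 0.074), and the first 2 passed. When every probe was tested on its own, Hmgcs1 and Elovl5 passed by their stronger probe and Dhcr7 did not (0.45, adjusted p = 0.078).

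The sterol and fatty acid arms were set side by side to see whether 1 arm moved and the other did not. Of the 17 sterol enzymes, 14 had a difference above 0, with a median of 0.19, 2 passed upward and none downward. Of the 12 genes of the fatty acid arm, 9 had a difference above 0, with a median of 0.10, none passed upward and 1 passed downward. Over all measurements 43.8% had a difference above 0, 2.10% passed upward and 2.63% downward, and the median was -0.02. For each array the difference of every gene from its control mean was taken and its median computed over each arm. The sterol enzymes had medians of 0.12, 0.11, 0.10 and 0.24 in curcumin mice, against 0.17, -0.08, -0.17 and 0.06 in control mice, and control array 1 was above 3 of the curcumin arrays. The fatty acid arm had medians of 0.18, 0.29, 0.04 and 0.14 in curcumin mice, against -0.09, 0.18, -0.02 and -0.01 in control mice, and control array 2 lay among the curcumin arrays. Over all 35 members the medians were 0.13, 0.19, 0.09 and 0.21 in curcumin mice. In control mice they were 0.03, -0.01, -0.07 and 0.01, without overlap between the diets. The members were chosen with earlier results of these data known, so these medians are a description and were not tested. Sterol minus fatty acid arm averaged -0.02 ± 0.13 in curcumin mice and -0.02 ± 0.23 in control mice (SD, n = 4 each), so no separation of the arms by diet could be seen against the spread between mice. The order of the arms by their median difference turned without control array 2, with 0.10 for sterol enzymes and 0.16 for the fatty acid arm, and without curcumin array 4, with 0.15 and 0.18. It also turned with slide range as a block and within the shared slide range, with 0.17 and 0.24 in both. The other slide range holds curcumin arrays only, so both settings give the same difference by construction and are not separate checks. With array weights the order turned as well, with 0.11 and 0.12.

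**Figure D4:**
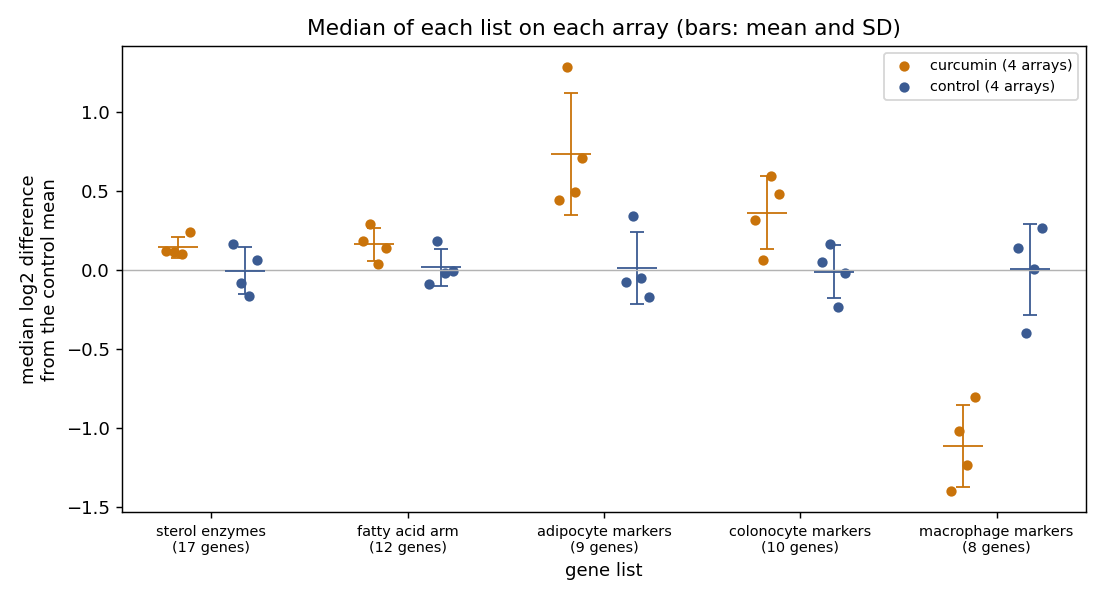
Median log2 difference from the control mean (vertical axis) over the 17 sterol enzymes, the 12 genes of the fatty acid arm and 3 lists of cell type markers (horizontal axis; 5 of the 10 colonocyte genes hold the shared log ratio on some arrays), with a point per array and bars for mean and SD over 4 arrays. Both arms overlap between the diets, while adipocyte markers are higher and macrophage markers lower in all 4 curcumin arrays than in any control array.

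Further genes of the pathways outside the 35 were looked at as a list of 39, of which 29 were tested, and 3 passed upward and 1 downward (median difference -0.02), where 2.10% of all measurements passed upward and 2.63% downward. The largest rise was in Acsl3, an acyl-CoA synthetase of lipid droplets, with 1.80, 1.04, 2.16 and 1.99 in curcumin mice, against 0.74, 0.29, 0.65 and 0.51 in control mice (1.20, SE 0.22, adjusted p = 0.0188 in limma). Its relative Acsl4, which prefers arachidonic acid, fell in all 4 curcumin mice, with -0.65, -0.55, -0.71 and -0.89, against 0.24, 0.05, 0.36 and 0.40 in control mice (-0.96, SE 0.11, adjusted p = 0.00235 in limma). Acsl4 passed in all 22 alternatives, and Acsl3 in 17 of 22; without curcumin array 1, curcumin array 4 or control array 4 Acsl3 had adjusted p of 0.0568, 0.0625 and 0.0601, and on the 6 arrays of 1 slide range its difference was 0.87 (adjusted p = 0.153). Acss2, which makes acetyl-CoA from acetate, rose by 0.47 (SE 0.10, adjusted p = 0.0286 in limma), and Mid1ip1, an activator of acetyl-CoA carboxylase, by 0.43 (SE 0.08, adjusted p = 0.0231 in limma). Leaving out 1 array, Acss2 kept its call without control array 2 or 3 only (adjusted p up to 0.0832 otherwise), and Mid1ip1 without curcumin array 2, control array 2 or control array 3 (up to 0.0706 otherwise). Neither passed within the shared slide range (adjusted p = 0.188 for Acss2 and 0.197 for Mid1ip1) or with slide range as a block (0.136 and 0.146), and Mid1ip1 had 0.0973 with a trended robust variance. The probe of Acss2 with the highest mean log ratio had a difference of -0.06.

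Markers of other cells moved between the same groups of mice, and their counts stand against the same 2.10% upward and 2.63% downward. Of 9 adipocyte markers tested, 3 rose and none fell, and all 9 differences lay above 0 (median 0.73). Fabp4 is 1 of the 3, and with the log ratio that many features share set to missing 2 passed, Adipoq and Cidec. The hormone gene Adipoq had 1.34, 2.13, 0.88 and 1.99 in curcumin mice, against -0.25, 0.21, -0.50 and -0.44 in control mice (1.84, SE 0.28, adjusted p = 0.00814 in limma), and the lipid droplet gene Cidec rose by 1.93 (SE 0.19, adjusted p = 0.00175). On the curcumin arrays Scd1 was highest on array 2, then 4, 1 and 3. Of the 9 adipocyte markers 6 were highest on array 2, 2 on array 4 and 1 on array 3, and 2 of the 9, Adipoq and Fabp4, had the same order of arrays as Scd1, though 2 of the 3 probes of Fabp4 sat at the shared log ratio on curcumin arrays 2 and 4. With shared log ratios set to missing, the median log2 ratio of the adipocyte markers ran from 0.30 to 1.13 on curcumin arrays and from -0.32 to -0.13 on control arrays. Of 10 colonocyte markers 2 rose and none fell past the threshold, with 7 differences above 0 and 3 below (median 0.40). Of 8 macrophage markers 4 fell and none rose (median -1.04), and of 9 genes of cycling cells 2 fell and none rose (median -0.72). In the colonocyte list 5 of 10 genes (Aqp8, Car1, Guca2a, Krt20 and Vil1) sat at the shared log ratio on some arrays, so no level of that list is given. With those values set to missing 6 could be tested, of which the same 2, Slc26a3 and Car4, rose (median 0.39). The median log2 ratio of the macrophage markers averaged 0.45 ± 0.25 on curcumin arrays and 1.44 ± 0.47 on control arrays (SD, n = 4 each). The macrophage markers helped to choose the direction of the ratio, so their sign is no result of its own. The part of these cells in the differences of Hmgcs1, Dhcr7, Elovl5, Scd1 and Fasn was not tested.

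**Figure D5:**
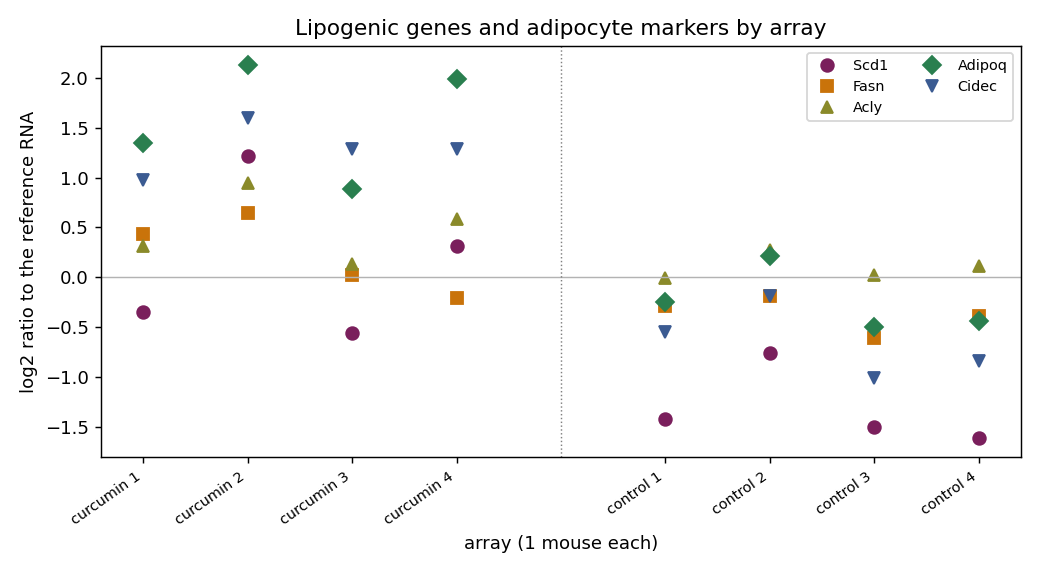
Log2 ratio to the reference RNA (vertical axis) of the lipogenic genes Scd1, Fasn and Acly and the adipocyte markers Adipoq and Cidec on each of the 4 curcumin and 4 control arrays (horizontal axis). Curcumin array 2 has the highest value of Scd1, Fasn, Adipoq and Cidec, while the value of Acly there rests on 1 of its 2 probes.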

How the data were processed

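RNA from the colon of 8 mice was measured on 8 two-channel Agilent arrays, 1 per mouse, and the groups and replicate numbers were taken from the sample titles. The deposited values are log2 ratios made with limma, per the submitters' processing notes; the version, background correction and normalization are not given in the sources used here. Between 11.4% and 23.8% of 44290 features have no value on an array, array medians lie between -0.02 and -0.01, and 191 to 397 features per array share a single log ratio. No column was without a sample. Features were named from the platform annotation, with symbols updated by gene identifier to RefSeq on GRCm38.p6. A feature was kept if each diet had it on 3 arrays or more, and kept features were averaged per gene on each array, which left 24030 measurements. A linear model of diet alone was fitted to each measurement (limma 3.58.1, R 4.3.3) with moderated two-sided tests, with the Benjamini-Hochberg method over all measurements and a threshold of 0.05. No set test was run, and arms and lists are described by counts and medians. Errors after ± are SD over 4 arrays; SE and 95% intervals are from limma. Promoter matches and figures used Python 3.11.15 with pandas 2.3.3 and matplotlib 3.10.9. The fit was tested on simulated data. The members and lists were chosen with earlier results of these data known. Values are given per array for members that passed and, in each subgroup, for the 2 with the smallest p among the rest; of other pathway genes, those that passed are named. Alternatives covered normalization, missing values, choice of probe, array weights, variance model, slide range, replicate number and leaving out each array. Alternatives added after seeing the data averaged all probes before filtering, took the probe with the lowest mean log ratio and set shared log ratios to missing in the marker lists.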

Additional observations from a re-analysis of the deposited data

Results flagged for a closer look

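In 5 of 74 groups of 4 arrays tested, 1 array lay far from the remaining 3, by Dixon's criterion on the gap as a share of the group's range; chance flags about 1 group in 20. Tm7sf2 in curcumin mice had array 1 at -0.68 apart from the others (0.86 of the range), which bears on its difference as described above. Nsdhl in curcumin mice had array 4 at -0.09 (0.964 of the range). Acacb in control mice had array 2 at -0.37 (0.953 of the range). Dgat2 in control mice had array 3 at -1.15 (0.833 of the range). The median of the sterol enzymes in curcumin mice had array 4 at 0.24 apart from the others (0.886 of the range).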

How the results depend on the processing

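The members that passed were Hmgcs1, Dhcr7 and Elovl5, with 2 members called higher and 1 lower. With the probe of highest mean log ratio there were 0 and 0, with every probe on its own or the probe of lowest mean log ratio 1 was higher (Hmgcs1), with array weights 4 were higher, and with slide range as a block or within the shared range 1 was higher (Fasn) and 0 lower. Leaving out 1 array gave 2 to 4 higher and 1 to 2 lower. The count over all measurements, 1137 (504 higher, 633 lower), was 1812 with array weights (1070 lower), 330 with slide range as a block (170 higher, 160 lower), 175 within the shared range (107 and 68) and 743 with the replicate block (382 lower). It was 512 to 1398 with 1 array left out (237 to 547 higher, 258 to 851 lower), and quantile normalization turned the split to 619 higher and 489 lower. The titles number mice 1 to 4 in both diets, and mice of the same number had correlations of deviations of 0.17, 0.21, -0.01 and -0.01. Mice of different numbers were not compared, and at numbers 3 and 4 the slide range differed as well. Whether the numbers pair the mice is therefore not settled. The replicate block kept the calls of Hmgcs1, Dhcr7 and Elovl5, added Scd1 (adjusted p = 0.0228) and gave Acss2 and Mid1ip1 adjusted p of 0.0535 and 0.0534.

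The median of the fatty acid arm moved to 0.24 with slide range as a block and within the shared range, and that of sterol sensing to 0.22 after quantile normalization and 0.24 with every probe on its own. With every probe on its own, each gene stood by its probe with the smallest p. Medians under that setting rest on probes chosen by p, which can make them larger, and not on all probes. Other shifts over 1.5 times were these: the sterol enzyme median, 0.19, was 0.11 with array weights, 0.10 without control array 2 0.12 without control array 3 and 0.097 with the probe of lowest mean log ratio. The fatty acid median, 0.10, was 0.15 after quantile normalization, 0.20 with every probe on its own, 0.038 with the probe of lowest mean log ratio, 0.027 without control array 1, 0.16 without control array 2 and 0.18 without curcumin array 4. Some members changed sign without passing. With the highest probe Mvk had -0.0091, Sc5d -0.013 and Srebf2 -0.072, and Acss2, which passed over all arrays, -0.056. With the lowest probe Lss had -0.046, Nsdhl -0.095 and Acaca -0.080. With array weights Mvk had -0.036, Idi1 -0.078 and Nsdhl -0.039. With the slide range as a block and within the shared range Mvk had -0.031, Nsdhl -0.031, Srebf2 -0.046, Acacb 0.14 and Fads2 -0.13. With 1 array left out, Mvk ran from -0.040 to 0.10, Pmvk from -0.20 to 0.043, Idi1 from -0.16 to 0.15, Nsdhl from -0.064 to 0.10, Hsd17b7 from -0.057 to 0.024, Sc5d from -0.015 to 0.14, Srebf2 from -0.019 to 0.16, Acacb from -0.22 to 0.068, Elovl6 from -0.11 to 0.21 and Fads2 from -0.072 to 0.11. The cause of these changes was not tested.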
